A study of Mus musculus with 66 samples.

Results

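Cxcl1, Cxcl2, Cxcl3, Cxcl5 and Csf3 encode 4 chemokines and 1 growth factor that bring neutrophils into inflamed tissue and keep up their supply. Their transcripts were followed through injury and repair of the mouse large bowel. The 5 genes were taken by name from the table of transcript abundances, and the values of each gene's transcripts were added, which gave 5 of the 30452 genes with values in that table. Each of the 5 genes had exactly 1 transcript with values. The study gave C57Bl/6 mice, bought at 6 weeks of age, drinking water with 3% dextran sodium sulfate (DSS), a detergent-like polysaccharide that strips the colonic epithelium, for 6 days. Bulk RNA was sequenced from 66 tissue samples of 19 mice in 21 groups: 4 uninjured mice (day 0) and 3 mice each at days 3, 6, 9, 14 and 20 after the start of DSS. From every mouse the mid-colon, the rectum and the anus were taken, and from the 9 mice of days 9, 14 and 20 also the squamous neo-epithelium, the stratified patch that forms in the rectum next to the anus after this injury. The mice carried no engineered allele, the day 3 mice had not yet finished their DSS, and the muscle layer had been removed from the sections. Each mouse was killed at a single day, so days are compared between different mice, while the sections of a day come from the same mice, and all later days of a section are compared with the same 4 uninjured mice.

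Cxcl1, Cxcl2, Cxcl3 and Cxcl5 belong to the CXC chemokines that carry a glutamate-leucine-arginine motif ahead of the first cysteines, and they act through the receptor Cxcr2 on neutrophils. Cxcl1 is made by stromal, endothelial, epithelial and myeloid cells, Cxcl2 and Cxcl3 are abundant products of activated myeloid cells, and Cxcl5 is known in mouse mucosa chiefly as an epithelial product. Csf3, also called G-CSF, acts through Csf3r, drives the making of neutrophils in the bone marrow and helps release them into the blood. In many cells the transcription of these genes is switched on through NF-kappaB by interleukin-1, tumour necrosis factor and microbial products, and interleukin-17 lengthens the life of their messenger RNAs.

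The 4 chemokine genes sit together on mouse chromosome 5 in GRCm38, all on the plus strand, within 147 kb. Cxcl5 (ENSMUSG00000029371) lies at chr5:90759360-90761624, Cxcl3 (ENSMUSG00000029379) at chr5:90786103-90789600, Cxcl1 (ENSMUSG00000029380) at chr5:90891241-90893115 and Cxcl2 (ENSMUSG00000058427) at chr5:90903871-90905938. Csf3 (ENSMUSG00000038067) is on chromosome 11, at chr11:98701263-98703629. The 4 chemokine transcripts have 4 exons each and that of Csf3 has 5. Promoter sequences were at hand for 3 of the 5 genes, from RefSeq (GRCm38.p6). They are shown because these 3 neighbouring promoters share a stretch of identical letters at a like distance from the start. Each sequence covers 121 bases of the plus strand, 5′ to 3′, from 150 to 30 bases before the RefSeq start of the gene, with the shared stretch in capitals. They are chr5:90785951-90786071 for Cxcl3, chr5:90891095-90891215 for Cxcl1 and chr5:90903749-90903869 for Cxcl2.
Cxcl3: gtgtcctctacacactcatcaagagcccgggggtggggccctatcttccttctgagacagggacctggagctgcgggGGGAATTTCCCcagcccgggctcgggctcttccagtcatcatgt
Cxcl1: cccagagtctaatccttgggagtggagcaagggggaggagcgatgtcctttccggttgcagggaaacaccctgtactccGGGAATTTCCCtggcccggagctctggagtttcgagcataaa
Cxcl2: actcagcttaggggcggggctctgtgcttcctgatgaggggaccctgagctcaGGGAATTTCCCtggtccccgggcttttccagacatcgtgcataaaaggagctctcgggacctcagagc
The run of 11 bases in capitals was the longest run that all 3 promoters share. It begins 73 bases before the start of Cxcl3, 71 before that of Cxcl1 and 97 before that of Cxcl2. The run GGGAATTTCCC was found, on either strand, in 9 of 32851 RefSeq promoter windows of the same genome (0.0274%). Those 9 include the 3 promoters shown, in which the run was chosen. It holds a match to the NF-kappaB consensus on each strand, and the matches overlap. That looser consensus was in 1207 windows (3.67%), so a match alone is common. A match in letters is a description and says nothing about binding in these tissues.

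Values are TPM, transcript abundances scaled to length and library total, which can be compared between genes, and fold changes are differences of log2(TPM + 1), tested with limma and adjusted over all genes tested in a comparison. No read counts came with the table, so the depth behind a value is unknown and no counting interval can be given. Between 11268 and 13789 genes reached 1 TPM in a sample, and the mitochondrial genes took 6.26% to 28.5% of the TPM. The section labels held up against markers: summed squamous keratin and cornification markers were at 13693 to 30583 TPM in the anus, 15347 to 34835 in the neo-epithelium and 6.00 to 81.8 in the mid-colon. The rectum reached 13.0 to 1063 TPM of the same squamous markers. Summed colonocyte markers were at 8588 to 24275 TPM in the rectum. In the neo-epithelium they were at 27.1 to 313 at day 9 but 3617 to 7910 at day 20. In the anus they were at 743 to 2630 TPM at day 0 and 1922 to 4648 at day 3. Their anal sum was 37.6 to 75.9 at day 6 and 34.6 to 43.3 at day 9. It was 71.0 to 438 at day 14 and 239.7 to 2319 at day 20. Anal comparisons of days 6, 9 and 14 with day 0 thus cross a fall of these markers, whose part was not tested. Skeletal muscle markers were at 1122 to 12280 TPM in the anus and at most 119 in the other sections. These are bulk samples, so more cells of a type and more RNA per cell cannot be told apart in any value that follows. The median of log2 differences over all genes tested lay between -0.27 and 0.26 in the 25 comparisons made.

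In the uninjured bowel Cxcl5 was the one member above 1 TPM in every sample of all 3 sections. Its TPM in the 4 uninjured mice was 3.35, 4.31, 2.94 and 4.30 in the mid-colon, and 5.07, 4.55, 6.23 and 6.15 in the rectum. In the anus it was 22.3, 5.04, 7.11 and 7.97. The rectum lay above the mid-colon with no overlap, and the anus overlapped the rectum because of mouse 2, while mouse 1 stood high in the anus alone. Neither step passed the test: rectum against mid-colon was 0.46 ± 0.15 (SE; limma, adjusted p = 0.129), and anus against rectum 0.64 ± 0.36 (adjusted p = 0.148), with 1.52% and 25.9% of all genes called higher. Cxcl1 was at 0.296 ± 0.183 (mean ± SD, n = 4) in the uninjured mid-colon, 0.433 ± 0.308 in the rectum and 0.387 ± 0.0864 in the anus. Cxcl3 was listed at 0 in all 4 uninjured mid-colons, was at 0.0774 ± 0.0579 in the rectum and at 1.26 ± 0.998 in the anus. Csf3 was listed at 0 in every uninjured mid-colon and rectum and was at 0.221 ± 0.0519 in the anus. Cxcl2 was at most 0.150 TPM in the uninjured mid-colon and rectum, and in the anus it was 0.588, 0, 0.611 and 1.05. So the uninjured anus held low levels of Cxcl2, Cxcl3 and Csf3 that the uninjured mid-colon and rectum hardly showed.

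**Figure D1:**
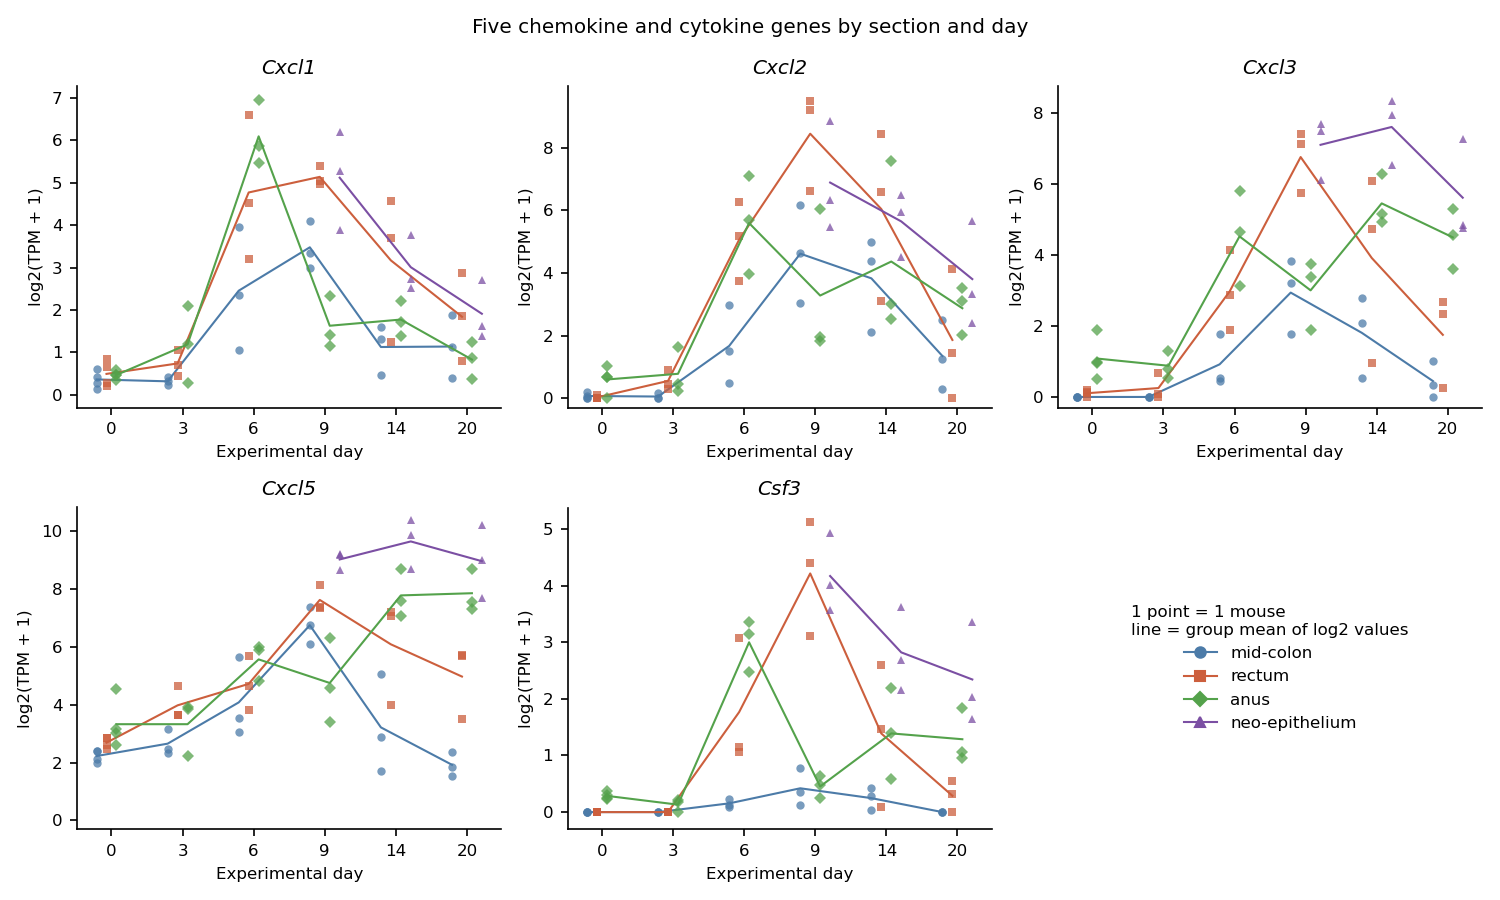
TPM of each of the 5 genes in every sample (log2(TPM + 1) axis), by day after the start of DSS and by section, with 1 point per mouse and lines through the group means of the log2 values. The rectum had its highest means at day 9 for Cxcl2, Cxcl3, Cxcl5 and Csf3 (472, 121, 204 and 20.6 TPM), and the anus had its highest Cxcl1 at day 6 (74.4 TPM).

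The response to DSS was followed by day in each section, and the counts of members past the test give its outline. The number of members tested differed between days and sections. In every comparison of a day with day 0, Cxcl5 alone passed the filter on low values (at least 1 TPM in a number of samples equal to the smaller group) in the uninjured mice too. The other 4 entered a comparison only through the later day, so their counts are a description. In the mid-colon, 0 of 1 tested member was called at day 3 (0.0666% of all genes were called higher), 2 of 2 at day 6 (4.93%), 4 of 4 at day 9 (26.5%), 1 of 2 at day 14 (2.55%) and 0 of 1 at day 20 (0.677%). In the rectum, 1 of 1 was higher at day 3 (1.50%), 5 of 5 at day 6 (11.5%), 5 of 5 at day 9 (33.5%), 3 of 3 at day 14 (6.31%) and 1 of 1 at day 20 (2.79%). In the anus, 0 of 1 was called at day 3 (0.0220%), 5 of 5 at day 6 (8.64%), 0 of 4 at day 9 (1.46%), 3 of 4 at day 14 (2.26%) and 3 of 3 at day 20 (1.09%). Where no member was called, limma gave an unadjusted p under 0.05 to 0 of 1 at mid-colon days 3 and 20 and at anus day 3, and to 3 of 4 at anus day 9. Every member called against day 0 was higher than at day 0. Single mice moved some of these counts. The count at rectum day 14 was 1, Cxcl2, without any of mice 1, 2, 3, 4, 15 or 16, with adjusted p of 0.0718 to 0.132 for Cxcl1 and 0.0515 to 0.0847 for Cxcl5, and it was 5 without mouse 14. At mid-colon day 14 it was 3 without mouse 14, and at mid-colon day 6 it was 1 without mouse 8 or 10. At rectum day 20 it was 4 without mouse 19, and at mid-colon day 20 it was 1 without mouse 19. At anus day 20 it was 1, Cxcl5, without mouse 2, 3, 18 or 19, and 2 without mouse 1 or 4. At anus day 14 it was 2 without mouse 2 or 15. With no filter on low values 0 members were called at mid-colon days 6 and 14 and at rectum days 3 and 20, and 1 at rectum day 14 and at anus day 20. In the rectum at day 9 the median difference of the 5 members was 4.94 on the log2 scale, beside 0.13 over all genes tested. In the anus at day 6 it was 3.45 beside 0.07.

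**Figure D2:**
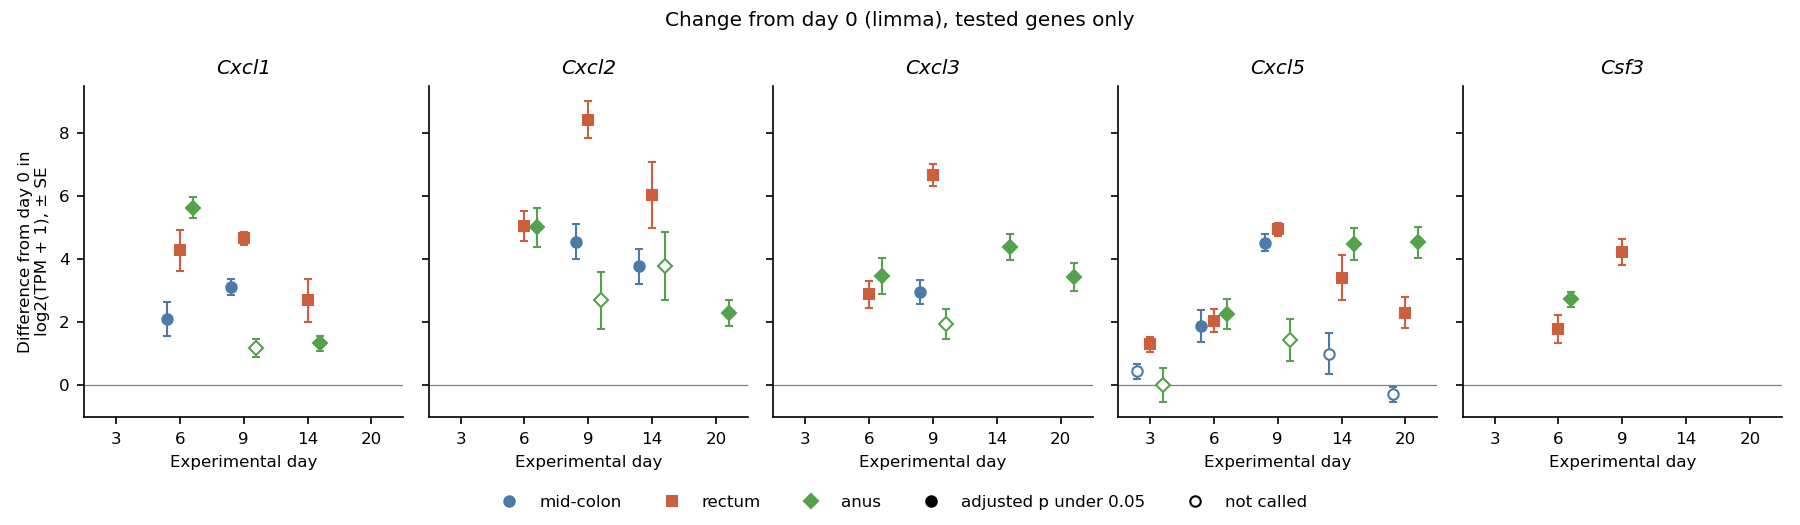
Difference of log2(TPM + 1) from day 0 with its standard error, by day, for each member in the mid-colon, rectum and anus; filled points passed the limma test (adjusted p under 0.05), open points did not, and untested pairs are not drawn. All 5 members have filled points in the rectum at days 6 and 9 and in the anus at day 6, and none has one in the anus at day 9.

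Cxcl1 had its highest mean in the anus at day 6. Its TPM there was 122, 57.8 and 43.2, against 0.283, 0.393, 0.494 and 0.378 in the uninjured mice. Every day 6 value lay far above every day 0 value, and the difference was 5.63 ± 0.33 on the log2 scale (SE; limma, adjusted p = 1.13e-04). By day 9 the anus was down to 1.21, 1.66 and 4.04, a difference from day 0 of 1.16 ± 0.29 that did not pass (adjusted p = 0.0593). At day 14 it was 1.61, 2.30 and 3.66, close to the day 9 values and above all uninjured ones. The day 14 difference of 1.31 ± 0.24 passed (adjusted p = 0.0236), but it was lost without mouse 2, mouse 15 or mouse 16.

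In the rectum Cxcl1 was high at both day 6 and day 9. The day 6 mice had 21.9, 8.22 and 95.6 TPM and the day 9 mice 30.4, 32.0 and 41.3, against 0.150 to 0.805 in the uninjured rectum. The day 6 mice differed widely among themselves while the day 9 mice stood close together, and both groups were clear of day 0. The differences were 4.28 ± 0.65 (limma, adjusted p = 0.00171) and 4.65 ± 0.20 (adjusted p = 1.15e-06). At day 14 the rectum had 1.36, 12.0 and 22.8 TPM, a difference of 2.68 ± 0.69 (adjusted p = 0.0396). Mouse 14 was the low one, and by day 20 the rectum had 2.62, 6.28 and 0.747 TPM, too low for a test. The mid-colon moved less: 4.15, 1.07 and 14.5 TPM at day 6 and 16.2, 6.90 and 9.21 at day 9, against at most 0.528 in uninjured mice. Here too no injured mouse overlapped the uninjured ones. The differences were 2.09 ± 0.53 (adjusted p = 0.0308) and 3.11 ± 0.26 (adjusted p = 2.38e-05).

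Cxcl2 had the largest difference from day 0 of the 5 genes, in the rectum at day 9. In the rectum it went from 0, 0, 0 and 0.0697 TPM in uninjured mice to 12.5, 35.1 and 75.8 at day 6 and 98.3, 594 and 723 at day 9. The groups did not overlap, and mouse 11 was well below the other day 9 mice. The log2 difference was 5.04 ± 0.48 at day 6 (limma, adjusted p = 2.53e-04) and 8.43 ± 0.59 at day 9 (adjusted p = 1.03e-05). At day 14 the rectum had 7.53, 96.1 and 345 TPM, and at day 20 it had 1.72, 16.6 and 0. The mice of day 14 thus spanned a wide range, and 1 mouse of day 20 had returned to a value of 0. The day 14 difference was 6.02 ± 1.05 (adjusted p = 0.0145).

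In the mid-colon Cxcl2 was 0.415, 1.86 and 6.95 TPM at day 6, 23.7, 71.2 and 7.30 at day 9 and 3.35, 19.7 and 30.9 at day 14. It was not tested at day 6, and at days 9 and 14 every mouse lay above the uninjured maximum of 0.150. The differences were 4.55 ± 0.55 (limma, adjusted p = 1.49e-04) and 3.76 ± 0.56 (adjusted p = 0.0122). At day 14 Cxcl2 was the one member called in the mid-colon, and without mouse 15 or mouse 16 no member was. In the anus Cxcl2 was 50.9, 137 and 14.8 TPM at day 6 (5.00 ± 0.63, adjusted p = 0.00156). It was 2.58, 65.5 and 2.85 at day 9, and 7.07, 4.72 and 189 at day 14. A single mouse stood high at each of these later days, mouse 12 and mouse 16, and neither day passed (2.68 ± 0.91, adjusted p = 0.145, and 3.77 ± 1.07, adjusted p = 0.102). All mice of both days lay above the uninjured maximum of 1.05 TPM. Day 14 did pass without mouse 16 (2.17, limma, adjusted p = 0.0351) and with all days in 1 fit (adjusted p = 0.049). Day 20, with 3.01, 10.4 and 7.62 TPM, passed in the main fit with a difference of 2.28 ± 0.40 (adjusted p = 0.04). That call was lost with a pseudocount of 0.1 (adjusted p = 0.0841), with no filter (adjusted p = 0.0844) and with all days in 1 fit (adjusted p = 0.208).

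Cxcl3 rose in the rectum at days 6 and 9, as Cxcl2 did, and in the anus at days 6, 14 and 20. In the rectum it was 2.73, 6.38 and 16.6 TPM at day 6 and 53.0, 171 and 139 at day 9, against at most 0.138 in uninjured mice. The groups did not overlap, and the differences were 2.87 ± 0.43 (limma, adjusted p = 0.00161) and 6.66 ± 0.35 (adjusted p = 2.76e-06). Day 14 had 0.936, 25.6 and 66.7 TPM in the rectum, where mouse 14 fell just under the filter and left the gene untested. In the mid-colon it went from values of 0 in all uninjured mice to 8.28, 13.3 and 2.44 TPM at day 9 (2.95 ± 0.39, adjusted p = 2.37e-04). In the anus the course was not a single peak. The day 6 mice had 24.2, 55.2 and 7.72 TPM, the day 9 mice 2.69, 12.4 and 9.54, the day 14 mice 34.8, 29.6 and 77.3 and the day 20 mice 11.3, 38.9 and 22.8. All of these but mouse 11 of day 9, at 2.69 TPM, lay above the uninjured maximum of 2.71. The differences were 3.45 ± 0.58 at day 6 (adjusted p = 0.00637), 4.38 ± 0.41 at day 14 (adjusted p = 0.00479) and 3.42 ± 0.45 at day 20 (adjusted p = 0.0189). Day 9 gave 1.92 ± 0.48 and did not pass (adjusted p = 0.0563), but it did without mouse 1 or mouse 11. Cxcl2 and Cxcl3 share 36 windows of 75 bases, the read length, which is 3.48% of the windows of Cxcl2 and 3.82% of those of Cxcl3, so few of their reads could have been split between them.

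Cxcl5 was the one member expressed enough to be tested at day 3, and it passed in the rectum. The highest value of any other member at day 3 was 3.25 TPM, that of Cxcl1 in the anus of mouse 5. Cxcl5 was 24.1, 11.6 and 11.5 TPM there against 4.55 to 6.23 in uninjured mice. The groups did not overlap, and the difference was 1.29 ± 0.24 (limma, adjusted p = 0.0137). This call depended on what else was in the fit: the adjusted p was 0.0545 with no filter on low values and 0.604 with all days in 1 fit. At day 6 the rectum had 24.2, 13.2 and 50.7 TPM and at day 9 it had 166, 285 and 162. Day 6 overlapped day 3, and day 9 stood above both. Their differences from day 0 were 2.04 ± 0.36 (adjusted p = 0.00325) and 4.94 ± 0.21 (adjusted p = 1.07e-06). At day 14 it was 15.1, 133 and 147 (3.40 ± 0.71, adjusted p = 0.0222), and at day 20 it was 50.2, 52.3 and 10.5 (2.29 ± 0.49, adjusted p = 0.0355). The rectum was still above its uninjured range in all 3 mice at day 20, but the call was lost without any of mice 1, 2, 3, 4, 17 or 18. Squamous markers were summed in the same samples. Their summed TPM (10 genes) in the rectum was 18.4 to 176 in uninjured mice, 14.9 to 32.8 at day 3 and 19.3 to 66.2 at day 6. It was 832, 228 and 186 at day 9, 36.7, 1063 and 742 at day 14 and 607, 371 and 13.0 at day 20. The mice with the lowest rectal Cxcl5 of days 14 and 20, mouse 14 and mouse 19, thus had the lowest squamous sums of their days. They also had the lowest rectal values of every other member on those days. At day 9 the order differed: mouse 11 had the highest sum, 832, with Cxcl5 at 166 TPM, and mouse 12 had 228 with 285 TPM. At days 3 and 6 Cxcl5 was high with sums inside or below the uninjured range. The part of squamous tissue in rectal Cxcl5 was not tested.

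The mid-colon and the anus parted over Cxcl5. In the mid-colon it was 10.6, 7.42 and 49.0 TPM at day 6, 107, 168 and 68.2 at day 9, 2.28, 32.7 and 6.31 at day 14 and 4.18, 1.91 and 2.63 at day 20. It was thus back in the uninjured range of 2.94 to 4.31 TPM, or below it, at day 20. Days 6 and 9 passed (1.86 ± 0.51, limma, adjusted p = 0.039, and 4.52 ± 0.28, adjusted p = 5.72e-06), and days 14 and 20 did not (0.99 ± 0.64, adjusted p = 0.426, and -0.31 ± 0.25, adjusted p = 0.517). The day 6 count of the mid-colon, 2 members, went to 0 without mouse 1, mouse 2 or mouse 3. In the anus Cxcl5 was 62.4, 58.7 and 27.5 TPM at day 6, 22.8, 9.51 and 78.0 at day 9, 193, 133 and 414 at day 14 and 159, 419 and 187 at day 20. The values of days 14 and 20 were above every earlier anal value, and day 9 overlapped day 0. The differences were 2.24 ± 0.47 at day 6 (adjusted p = 0.0148), 1.43 ± 0.67 at day 9 (adjusted p = 0.292), 4.46 ± 0.51 at day 14 (adjusted p = 0.00772) and 4.53 ± 0.49 at day 20 (adjusted p = 0.0107). The day 6 call was lost without mouse 8 (adjusted p = 0.0679) or mouse 9 (adjusted p = 0.0692).

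Csf3 had the lowest maximum of the 5 genes among the 66 samples, 33.9 TPM. In the rectum it was listed at 0 in all mice of days 0 and 3, was 1.22, 1.10 and 7.45 TPM at day 6 and 7.68, 20.2 and 33.9 at day 9. All day 9 mice were above all day 6 mice. The differences from day 0 were 1.77 ± 0.44 (limma, adjusted p = 0.0114) and 4.22 ± 0.40 (adjusted p = 4.76e-05). In the anus it was 7.89, 9.30 and 4.59 TPM at day 6 against at most 0.290 in uninjured mice (2.71 ± 0.25, adjusted p = 4.55e-04). By day 9 the anus was back to 0.186, 0.551 and 0.395 TPM. It was too low to be tested there, and at days 14 and 20 its anal means were 1.90 ± 1.57 and 1.54 ± 0.907 (SD, n = 3). In the mid-colon Csf3 passed the filter in no comparison with day 0, and its highest value in any mouse was 0.711 TPM, at day 9.

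The rectum and the mid-colon of the same mice were compared to ask whether the response differed along the colon. Here too Cxcl5 alone passed the filter in the uninjured mice, and the other 4 entered through the groups where they are high, so their counts are a description. At days 6, 9 and 14 each of the 5 members was higher in the rectum than in the mid-colon in 3 of 3 mice. At day 9 the difference from day 0 was larger in the rectum by 1.53 ± 0.35 on the log2 scale for Cxcl1 (limma interaction, adjusted p = 0.0155), 3.88 ± 0.92 for Cxcl2 (adjusted p = 0.0194), 3.72 ± 0.58 for Cxcl3 (adjusted p = 0.00158) and 3.80 ± 0.46 for Csf3 (adjusted p = 4.24e-04). That is 4 of 5 members, beside 5.84% of all genes. For Cxcl5 it was 0.41 ± 0.38 and did not pass (adjusted p = 0.629), with 68.2 to 168 TPM in the mid-colon and 162 to 285 in the rectum. Without mouse 1, 3 or 13 the count was 2, and without mouse 2 or 4 it was 3, in each case with Cxcl3 and Csf3 kept. The Cxcl2 call was lost with the low genes kept in the test (adjusted p = 0.0523) and the Cxcl1 call with a pseudocount of 0.1 (adjusted p = 0.306). At day 6 no member's response passed the test between rectum and mid-colon in the fit without the mouse as a block (limma, 0 of 5, beside 0% of all genes, with an unadjusted p under 0.05 for 4 of 5). Without mouse 8 or mouse 10, 1 member passed, Cxcl2. With the mouse as a block 3 members passed: Cxcl1 (adjusted p = 0.0114), Cxcl2 (1.32e-04) and Cxcl3 (0.0163).

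The anus and the rectum of the same mice were compared in the same way, with the same limit from the filter. At day 6 none of the 5 responses passed the test for a difference between them (0 of 5, beside 15.4% of all genes higher in the anus, and an unadjusted limma p under 0.05 for 0 of 5). Without mouse 10, 2 passed, Cxcl1 (2.58 on the log2 scale, limma, adjusted p = 0.00906) and Csf3 (1.86, adjusted p = 4.25e-04), so sizeable differences are not excluded. At day 9 all 5 were smaller in the anus, beside 15.6% of all genes. The interaction was -3.49 ± 0.36 for Cxcl1 (limma, adjusted p = 1.99e-05), -5.74 ± 1.21 for Cxcl2 (adjusted p = 0.00412), -4.74 ± 0.64 for Cxcl3 (adjusted p = 1.48e-04), -3.51 ± 0.78 for Cxcl5 (adjusted p = 0.00573) and -4.05 ± 0.46 for Csf3 (adjusted p = 3.73e-05). In each of the 3 mice of day 9 the anus was below the rectum for all 5 genes. By day 20 the order of levels had turned for 3 of them: Cxcl3, Cxcl5 and Csf3 were higher in the anus in 3 of 3 mice. The day 20 interaction of Cxcl5 was 2.24 ± 0.77 (adjusted p = 0.312) and that of Cxcl3 1.77 ± 0.74 (adjusted p = 0.418), so neither passed (0 of 4, beside 0.109% of all genes, with an unadjusted p under 0.05 for 2 of 4).

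The squamous neo-epithelium held the highest Cxcl5 and Cxcl3 of the study. Cxcl5 was 406, 602 and 584 TPM at day 9, 411, 950.4 and 1339 at day 14 and 512, 1192 and 206 at day 20. Every one of these values was above the rectum of the same mouse, and above its anus. Over the 9 mice the neo-epithelium exceeded the rectum by 2.98 ± 0.53 on the log2 scale (limma, adjusted p = 2.12e-04) and the anus by 2.42 ± 0.51 (adjusted p = 7.63e-04). Cxcl3 was 68.7, 182 and 208 TPM at day 9, 92.1, 248 and 327 at day 14 and 26.1, 153 and 27.7 at day 20. It too was above the rectum and above the anus in 9 of 9 mice. The differences were 2.64 ± 0.71 (adjusted p = 0.00623) and 2.46 ± 0.50 (adjusted p = 5.15e-04).

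Cxcl1 and Cxcl2 passed no test between neo-epithelium and rectum over the 9 mice. Cxcl1 was 13.8, 37.5 and 72.9 TPM at day 9, 4.77, 5.67 and 12.6 at day 14 and 1.63, 5.56 and 2.09 at day 20. It was above the rectum in 4 of 9 mice, with a difference of -0.04 ± 0.41 (limma, adjusted p = 0.955). Cxcl2 was 79.8, 43.3 and 465 TPM at day 9, 60.7, 21.9 and 88.4 at day 14 and 4.31, 49.9 and 9.11 at day 20, and it was above the rectum in 4 of 9 mice. Its difference from the rectum of 0.00 had an SE of 0.83 (adjusted p = 0.997), so a change of severalfold either way lies within its error. By day, the gap of Cxcl2 to the rectum of the same mouse went from -1.56 ± 1.90 (SD, n = 3; below the rectum in 3 of 3 mice) at day 9 to -0.40 ± 2.82 at day 14 and 1.95 ± 1.24 at day 20 (above it in 3 of 3 mice), so the pooled value averages opposite days. For Cxcl1 the gaps were -0.02 ± 0.97, -0.16 ± 1.26 and 0.07 ± 0.67. Csf3, at 10.9, 15.1 and 29.5 TPM at day 9, 3.45, 5.41 and 11.4 at day 14 and 2.11, 9.22 and 3.11 at day 20, was above the rectum in 7 of 9 mice. Its difference of 1.15 ± 0.41 passed (adjusted p = 0.0323), but not without mouse 15, 17, 18 or 19 (adjusted p between 0.0574 and 0.0925), nor with the low genes kept in the test (adjusted p = 0.0548). In all, 3 of 5 members were higher than in the rectum, beside 20.7% of all genes. All 5 were higher than in the anus, beside 38.1% of all genes, with 1.94 ± 0.39 for Cxcl1 (adjusted p = 5.42e-04), 1.94 ± 0.80 for Cxcl2 (adjusted p = 0.046) and 2.07 ± 0.40 for Csf3 (adjusted p = 3.29e-04). The Cxcl2 call against the anus was lost without mouse 11, 13, 14, 15 or 18 (adjusted p between 0.0644 and 0.154), with the low genes kept in the test (adjusted p = 0.0749) and with median-of-ratios scaling (adjusted p = 0.0772).

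**Figure D3:**
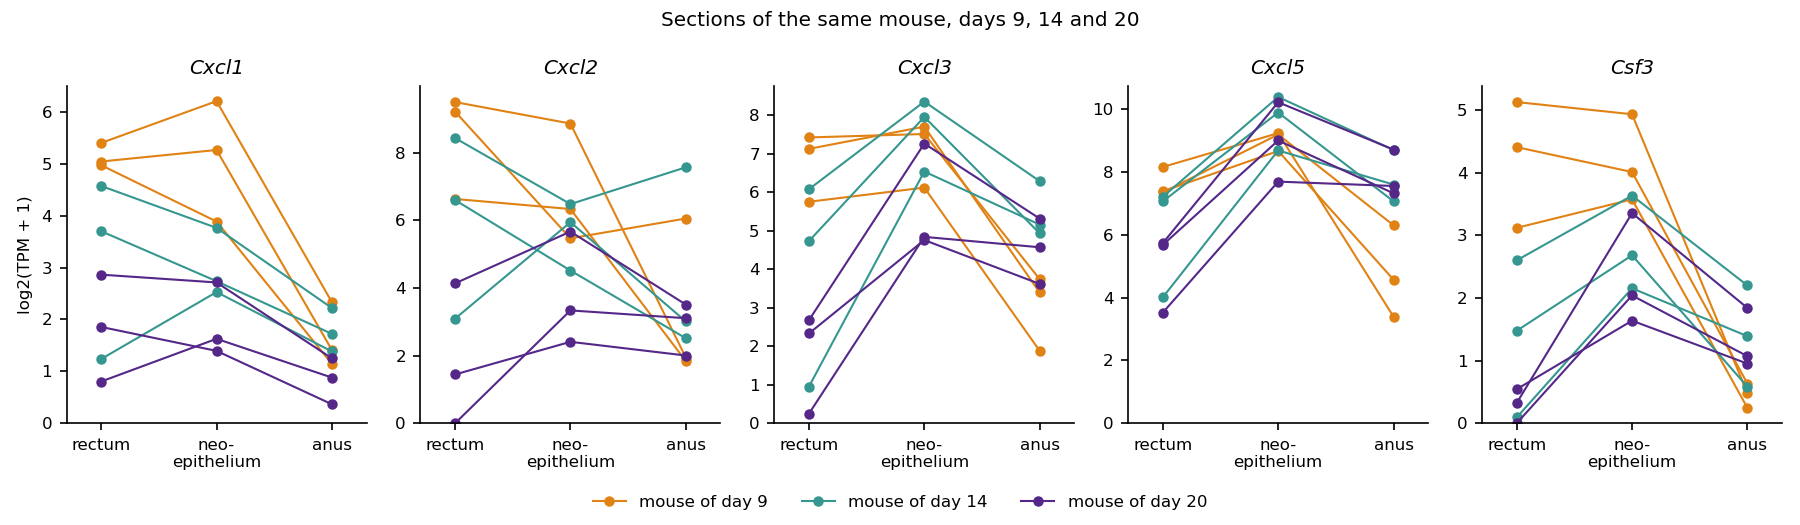
TPM (log2(TPM + 1) axis) of each member in the rectum, neo-epithelium and anus of the same mouse at days 9, 14 and 20, with 1 line per mouse. The lines peak at the neo-epithelium in all 9 mice for Cxcl3 and Cxcl5, while 4 of 9 mice have more Cxcl1 and 4 of 9 more Cxcl2 there than in the rectum.

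Within the neo-epithelium Cxcl1 and Csf3 fell from day 9 to day 20. Cxcl1 fell by 3.21 on the log2 scale (SE 0.62; limma, adjusted p = 0.014) and Csf3 by 1.83 (SE 0.52; adjusted p = 0.0446), with all day 20 mice below all day 9 mice for both genes. Those are 2 of 5 members, beside 16.1% of all genes called lower, and the Csf3 call was lost with the low genes kept in the test (adjusted p = 0.0899) and with median-of-ratios scaling (adjusted p = 0.0659). Cxcl2 gave -3.09 ± 1.09 (adjusted p = 0.0796), Cxcl3 -1.49 ± 0.75 (adjusted p = 0.183) and Cxcl5 -0.06 ± 0.59 (adjusted p = 0.95), with overlapping groups for Cxcl2, Cxcl3 and Cxcl5. Differences between the members were not tested. The count was 0 without mouse 12 or mouse 17, 1 without mouse 11, 13 or 19, and 4 without mouse 18, the mouse with the highest day 20 value of all 5 genes. The gap between neo-epithelium and rectum of the same mouse was, for Cxcl5, 1.40 ± 0.40 (SD, n = 3) at day 9, 3.56 ± 0.99 at day 14 and 3.99 ± 0.60 at day 20. For Cxcl3 the same gap was 0.35 ± 0.25, 3.70 ± 1.70 and 3.87 ± 1.25. The gap to the anus ran the other way, from 4.28 at day 9 to 1.87 and 1.11 for Cxcl5. The later neo-epithelium therefore stood farther from the rectum and nearer to the anus in these genes than at day 9, a difference between days that was not tested.

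The make-up of the summed signal changed with day and section. Cxcl5 was the most abundant of the 5 transcripts in 54 of 66 samples, Cxcl2 in 9 and Cxcl1 in 3. In uninjured mice Cxcl5 made up on average 91.3% of the summed TPM of the 5 in the mid-colon, 91.4% in the rectum and 79.3% in the anus. At the peak the shares were mixed. Cxcl2 made up 49.1% and Cxcl5 29.1% in the rectum at day 9, and Cxcl1 made up 36.0% and Cxcl5 23.3% in the anus at day 6. In the mid-colon at day 9 Cxcl5 still made up 70.5%. At day 20 Cxcl5 was at 88.4% in the anus and 87.1% in the neo-epithelium, where it led in all 9 samples. In the mid-colon it was at 34.6% at day 14, when Cxcl2 made up 52.4%, and at 52.2% (20.1% to 82.6%) at day 20. The summed TPM itself ran from 3.20 to 4.80 in the uninjured mid-colon, 355 to 1103 in the rectum at day 9 and 572 to 1778 in the neo-epithelium at day 14. When the 21 groups were put in order of their mean TPM, neighbours overlapped in 20 of 20 steps for Cxcl3, in 19 of 20 for Cxcl1, Cxcl2 and Cxcl5 and in 18 of 20 for Csf3, so single places in the order are not resolved by 3 or 4 mice a group.

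**Figure D4:**
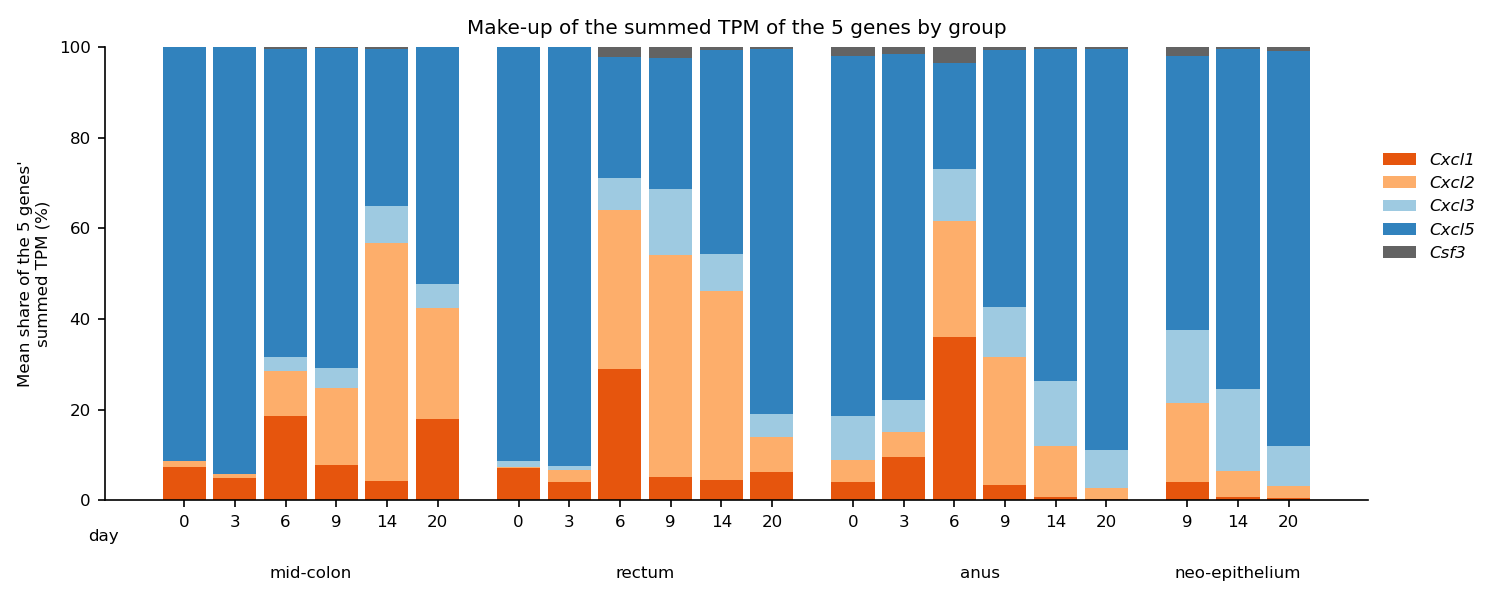
Mean share (%) of each member in the summed TPM of the 5 genes, by section and day, as stacked bars from 0 to 100. Cxcl5 fills most of the bar in uninjured mice (91.4% in the rectum), shrinks to 29.1% in the rectum at day 9 and fills most of it in the anus (88.4%) and neo-epithelium (87.1%) at day 20, but not in the mid-colon at day 14 (34.6%).

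The receptors of these ligands were followed as a list of 4 genes: Cxcr1 and Cxcr2, the chemokine receptors of neutrophils, Csf3r, the receptor of Csf3, and Ackr1, a venular receptor that binds chemokines without signalling. In the rectum at day 9, 3 of 4 rose, beside 33.5% of all genes, and 1, Cxcr1, was too low to be tested. Cxcr2 and Csf3r passed the filter only through day 9, so for them the count is a description. Csf3r went from a mean of 0.189 TPM to 74.3 (range 45.2 to 96.7; 5.92 ± 0.24, limma, adjusted p = 8.13e-07), Cxcr2 from 0.213 to 34.8 (4.87 ± 0.16, adjusted p = 2.91e-07) and Ackr1 from 2.39 to 12.7 (1.87 ± 0.36, adjusted p = 0.00241). In the anus at day 6, 3 of 3 tested receptors rose, beside 8.64% of all genes, with Csf3r tested only through day 6. At anus day 20, when Cxcl5 was at 159 to 419 TPM, 1 of 3 tested receptors passed, Csf3r (3.52 ± 0.67, limma, adjusted p = 0.0489), beside 1.09% of all genes. Csf3r entered that test only through day 20. In the neo-epithelium Csf3r had means of 73.4 (range 33.2 to 105), 68.8 (34.5 to 126) and 77.9 TPM (19.2 to 172) at days 9, 14 and 20, with a wide spread between mice. Against the rectum of the same days, 1 of 4 receptors was higher there, Ackr1, which is near the 20.7% of all genes called higher.

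A list labelled inducing cytokines held 11 genes: Il1a, Il1b, Tnf, Il6, Osm, Csf2, the interleukin-17 genes Il17a, Il17c and Il17f, and the epithelial interleukin-36 genes, which the table lists under the older symbols Il1f6 and Il1f9. Whether any of them induced the 5 genes in these tissues was not tested. In the rectum 6 of 6 tested rose at day 6 and 8 of 8 at day 9, beside 11.5% and 33.5% of all genes. All of these passed the filter only through the later day, so the counts are a description. Il1b, which activates NF-kappaB, led them, from a mean of 0.272 TPM in uninjured mice to 182 at day 6 and 1174 at day 9 (range 326 to 1603; 9.54 ± 0.51, adjusted p = 2.81e-06). In the anus 3 of 8 rose at day 6 (Il1b, Il6 and Osm, beside 8.64% of all genes). There Il6 and Osm passed the filter only through day 6, so for them the count is a description. At day 9, 0 of 5 rose, beside 1.46% (limma, unadjusted p under 0.05 for 1). At each of days 14 and 20, 1 of 6 rose, Il1b both times, beside 2.26% and 1.09% of all genes. Il6 had its highest mean in the anus at day 6 (23.2 TPM, range 12.6 to 39.3), the group that also had the highest Cxcl1, and was at 0.282 in the anus at day 9. Il17a reached at most a mean of 2.21 TPM, in the rectum at day 9. Il1f6 was high in the anus throughout (means of 40.3 to 77.5 TPM) but at 3.38 to 6.71 in the neo-epithelium, where it was lower than in the anus by -2.84 on the log2 scale. In the neo-epithelium from day 9 to day 20 Il6 was the one of 8 tested cytokines that fell, by 3.39, beside 16.1% of all genes called lower. At day 9, 8 of 8 tested cytokines responded more in the rectum than in the mid-colon, beside 5.84% of all genes. Against the rectum, 7 of 8 responded less in the anus, beside 15.6% of all genes. Il1a, Il1b, Tnf, Il6, Osm and Il1f9 were under 1 TPM in every uninjured mid-colon and rectum, so the count for rectum against mid-colon is a description. Il6 and Osm were under 1 TPM in every uninjured anus too, so for them the count for anus against rectum is also a description.

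Another list of 11 held the genes that carry these signals to the chemokine genes or control the life of their messages, such as the transcriptional regulators Nfkbiz and Cebpb, the RNase Zc3h12a and the message-destabilising Zfp36. In the rectum at day 9, 9 of 11 rose and 1 fell, beside 33.5% of all genes called higher. All 11 passed the filter in uninjured mice too. Nfkbiz went from a mean of 7.64 TPM to 78.1, Cebpb from 4.69 to 69.4, and Zc3h12a from 6.62 to 48.1. The fall was that of Il17rc, a chain of the interleukin-17 receptor, from 28.0 to 9.01 (-1.56 on the log2 scale). In the rectum at day 6, 6 of 11 rose and 0 fell (beside 11.5% of all genes higher), and in the anus at day 6, 4 of 11 rose and 0 fell (beside 8.64%). In the anus at days 9, 14 and 20 limma called 0 of 11 in either direction, beside 1.46%, 2.26% and 1.09% of all genes called higher. A count of 0 is near these shares. The unadjusted limma p was under 0.05 for 4, 3 and 1 of the 11.

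**Figure D5:**
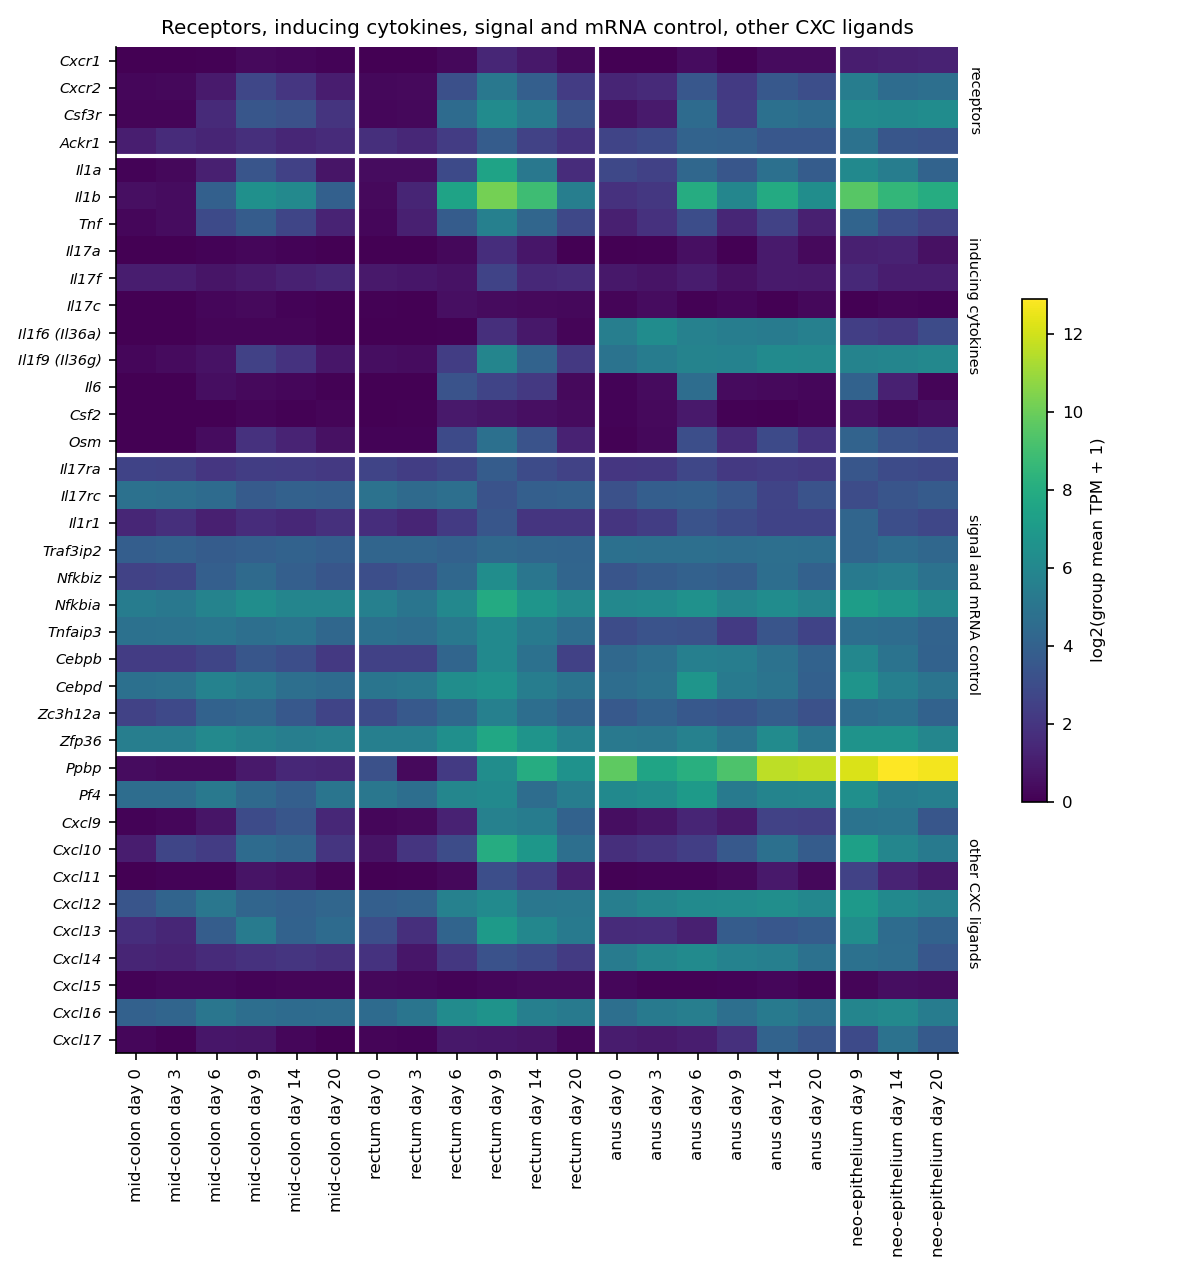
Colour shows log2(group mean TPM + 1) of the receptors, inducing cytokines, signal and mRNA control genes and other CXC ligands (1 line per gene) in the 21 groups, ordered by section and day. Il1b is brightest in the rectum at day 9 (1174 TPM), Il6 in the anus at day 6 (23.2 TPM) and Ppbp in the neo-epithelium at day 14 (7716 TPM).

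Among the other CXC ligands, a list of 11, Ppbp stood out because it lies next to Cxcl5 on chromosome 5 and encodes another Cxcr2 ligand, best known from platelets. Its TPM in uninjured mice was a mean of 0.364 in the mid-colon, 8.35 in the rectum (range 2.49 to 12.1) and 825 in the anus (range 646 to 1268). The anus exceeded the rectum by 6.56 ± 0.39 on the log2 scale (limma, adjusted p = 6.21e-07). In the anus Ppbp was lowest at day 3 (mean 187 TPM, range 151 to 214), and at day 6 (mean 286) it was also below day 0 (-1.57 ± 0.34, limma, adjusted p = 0.0168). It was above day 0 at days 14 (1.94 ± 0.31, adjusted p = 0.0149) and 20 (2.11 ± 0.28, adjusted p = 0.0189), when Cxcl5 was highest there. In the neo-epithelium its means were 4659, 7716 and 6689 TPM at days 9, 14 and 20, above the rectum by 7.00 ± 0.99 (adjusted p = 2.90e-05) and above the anus by 1.76 ± 0.38 (adjusted p = 8.44e-04). Pf4, the platelet gene beside it, was between 14.1 and 129 TPM as a mean in all 21 groups. None of the 1009 windows of 75 bases of the Ppbp transcript is shared with another transcript. Of the 11 ligands, 7 of 8 tested rose in the rectum at day 9 and 0 fell, beside 33.5% of all genes higher. Cxcl9 and Cxcl10 passed the filter there only through day 9, so for them the count is a description. In the neo-epithelium 4 of 10 tested were higher than in the rectum and 0 lower, beside 20.7% of all genes higher. Cxcl17 passed the filter in that comparison only through the neo-epithelium, so for it the count is a description.

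Markers of neutrophils moved beside the members in the rectum and, for part of the list, in the anus. Of a list of 10 markers, which shares Cxcr2 and Csf3r with the receptors, 10 of 10 rose in the rectum at day 9 and 8 of 8 tested at day 6, beside 33.5% and 11.5% of all genes. All but S100a9 and Ly6g passed the filter there only through the later day. In the anus 5 of 8 tested rose and 1 fell at day 6, 4 of 9 rose and 1 fell at day 9, 3 of 8 rose and 1 fell at day 14, and 3 of 8 rose at day 20, beside 8.64%, 1.46%, 2.26% and 1.09% of all genes higher. Csf3r, Retnlg and Stfa2l1 rose at all of these days in the anus, each tested only through the later day, and the gene that fell was Ly6g. S100a8, a calcium-binding protein abundant in neutrophils, went from a mean of 0.497 TPM to 5655 in the rectum at day 9 (11.95 ± 0.30). Ly6g was high in the uninjured mid-colon (mean 716 TPM) and rectum (mean 639), so the list is summed without it. That sum over the other 9 markers was 1.08 to 6.38 TPM in the uninjured rectum, 4.01 to 5.73 at day 3, 377 to 3655 at day 6, 11613 to 13616 at day 9, 194 to 4817 at day 14 and 16.4 to 647 at day 20. At day 3, when Cxcl5 had risen in the rectum, the sum lay inside its uninjured range, but within it S100a8 was at 2.46 to 4.29 TPM against 0 to 1.27 in uninjured mice (1.71 ± 0.32, limma, adjusted p = 0.0129). S100a9 was at a mean of 0.795 against 2.01, and Retnlg and Stfa2l1 were listed at 0 in all 3 mice of day 3. In the mid-colon it went from 0.201 to 3.36 TPM in uninjured mice to 489.7 to 2299 at day 9. In the anus it was 407 to 1448 in uninjured mice, 1435 to 4007 at day 6, 1012 to 3251 at day 9, 896 to 5100 at day 14 and 661 to 2587 at day 20, so every later range overlapped the uninjured one. Most of the uninjured anal sum came from S100a8 (mean 259.6 TPM) and S100a9 (427), which squamous epithelium also makes, and Il1r2 (75.0). Other markers rose from near 0 with no overlap: Retnlg, a neutrophil-secreted protein, was 0.120 to 1.04 TPM in the uninjured anus, 26.5 to 86.6 at day 6 (5.16 ± 0.39, adjusted p = 2.31e-04) and 4.28 to 42.2 at day 20 (3.47 ± 0.62, adjusted p = 0.0425). Stfa2l1 was listed at 0 in all uninjured anus samples and was 2.75 to 22.0 at day 6. At anus day 20 S100a8 was at a mean of 651 TPM and did not pass (1.33 ± 0.54, adjusted p = 0.232). In the neo-epithelium 0 of 10 markers were higher than in the rectum, beside 20.7% of all genes, and 1, Ly6g, was lower (limma, unadjusted p under 0.05 for 5 of 10 in either direction). Against the anus 7 of 10 were higher there, beside 38.1% of all genes. The part of neutrophils themselves in the levels of the 5 genes was not tested. Markers of monocytes and macrophages, another possible source, rose 9 of 9 in the rectum at day 9, beside 33.5% of all genes. Their summed TPM was 249.6 to 333 in uninjured mice and 2064 to 2343 at day 9, and their part was not tested either.

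The patterns most like each member were ranked by Pearson correlation of log2(TPM + 1) means over the 21 groups, among 12032 genes. The groups share mice and uninjured controls are few, so these are descriptions. Cxcl1 ran closest with Il1rl1 (r = 0.958), the interleukin-33 receptor, then with Il6 (0.923) and Hgf (0.918), a stromal growth factor. Cxcl2 ran closest with Clec4e (0.990), a myeloid lectin, then with Osm (0.977) and Il1b (0.971). Cxcl3 ran closest with Fes (0.978), a myeloid tyrosine kinase, and Ccdc88b (0.973). Cxcl5 ran closest with Nabp1 (0.955), then with Ifi204 and Ifi211 (0.943 for either) and Fes (0.942). Csf3 ran closest with Inhba (0.986), which encodes the activin A subunit, then with Pik3r5 (0.969), Tlr13 (0.964) and Siglece (0.963). Among the members themselves Cxcl3 and Cxcl5 were the most alike (0.942) and Cxcl1 and Cxcl5 the least (0.535).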

How the data were processed

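Per the labels, RNA of 66 samples was sequenced as stranded, single-end 75-base reads. The submitters' processing notes name CASAVA, kallisto and mm10; their roles and versions are not given in the sources used here. The authors deposited 1 table of TPM per transcript, a signal normalised to transcript length and library total. Of its 126860 lines, 37344 held no values and 1318 were repeats of a transcript and were dropped, after which each sample summed to between 999999.8 and 1000000.2. The values of 88198 transcripts were added to 30452 genes. Transcripts without a gene name, 0.563% to 2.83% of the TPM, were left out. Depth is unknown, so the number of mice limits precision. The members and gene lists were chosen with earlier results of these data known.

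Genes with at least 1 TPM in a number of samples equal to the smaller group were tested as log2(TPM + 1) with limma 3.58.1 (R 4.3.3; lmFit, eBayes with trend), with Benjamini-Hochberg adjustment over all genes tested and calls at adjusted p under 0.05. Day comparisons used the mice of both days, and section comparisons used sections of the same mice without a block. P-values of day comparisons measure the spread between mice. Those of section and response comparisons rest on the spread between samples, with sections of 1 mouse entered as separate samples. Named were the 5 members, genes of the pathway lists (Il36a and Il36g stand in the table as Il1f6 and Il1f9), markers, and those of the 4 genes most correlated with each member. Same-numbered sections come from 1 mouse per the labels; their deviations from group means correlated by 0.146 on average (rectum and mid-colon, day 0), 0.258 (neo-epithelium and rectum) and 0.157 (neo-epithelium and anus). Alternatives were a pseudocount of 0.1, no filter, a filter of 5 TPM, median-of-ratios scaling, no mitochondrial genes, all days in 1 fit, a mouse block, and leaving out each mouse. The fits were tested on simulated data. Locations come from GENCODE M21. Tables and figures were made with Python 3.11.15, pandas 2.3.3, numpy 2.4.6 and matplotlib 3.10.9.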

Additional observations from a re-analysis of the deposited data

Results flagged for a closer look

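In the rectum of the 4 uninjured mice, Cxcl2 was at 0.0697 TPM in mouse 4 and listed at 0 in the other 3, so that mouse stood apart from its group, at a level near 0. In the anus of the 4 uninjured mice, Cxcl5 was at 22.3 TPM in mouse 1 and between 5.04 and 7.97 in the others. These were 2 of 12 groups of 4 mice checked, and chance alone marks about 1 in 20 groups. Leaving out mouse 1 changed no call of anal Cxcl5 against day 0.

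The day 9 response differed between sections by the limma interaction test. It was larger in the rectum than in the mid-colon by 1.53 on the log2 scale for Cxcl1, 3.88 for Cxcl2, 3.72 for Cxcl3 and 3.80 for Csf3. It was smaller in the anus than in the rectum, by -3.49 for Cxcl1, -5.74 for Cxcl2, -4.74 for Cxcl3, -3.51 for Cxcl5 and -4.05 for Csf3. Both sets of differences rest on the rectum of the same 7 mice. In both, Cxcl5 alone passed the filter in the uninjured mice, so the calls of the other members are a description.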

How the results depend on the processing

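Of 83 tested member values, no called one changed its direction under 1062 alternative values; 956 kept their side of the threshold, 90 lost the call and 16 gained it. The counts of members called that changed by over 1.5 times were these. With no filter on low values they were 0 at mid-colon days 6 and 14 and rectum days 3 and 20, 1 at rectum day 14, anus day 20 and neo-epithelium day 20 against day 9, and 3 for anus against rectum at day 0. With a filter of 5 TPM they were 1 at mid-colon day 6, 0 at mid-colon day 14 and 3 at rectum day 6. With all days in 1 fit they were 1 at mid-colon day 6, 2 at mid-colon day 14, 0 at rectum days 3 and 20 and 1 at anus day 9. Anus day 9 also gave 1 with a pseudocount of 0.1 or median-of-ratios scaling, which gave 1 for neo-epithelium day 20 against day 9. With the mouse as a replicate block the day 6 responses of rectum and mid-colon differed for 3 members, and the block changed no other count. Smaller changes were 2 with no filter for neo-epithelium against rectum, 4 against the anus with no filter or median-of-ratios scaling, 3 for the day 9 response of rectum against mid-colon with no filter or a pseudocount of 0.1, and 2 at anus day 20 with a pseudocount of 0.1, a filter of 5 TPM or all days in 1 fit. With a filter of 5 TPM the count was also 3 at mid-colon day 9, 2 at rectum day 14, 4 at anus day 6 and 2 at anus day 14. It was 4 at rectum day 14 with median-of-ratios scaling, without mitochondrial genes or with all days in 1 fit, and 4 at anus day 14 with all days in 1 fit. The causes were not tested.

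Leaving out each mouse in turn, the count ran from 0 to 2 at mid-colon day 6, 0 to 3 at mid-colon day 14, 0 to 1 at mid-colon day 20, 1 to 5 at rectum day 14, 0 to 4 at rectum day 20, 0 to 1 at anus day 9, 1 to 3 at anus day 20 and 0 to 4 for neo-epithelium day 20 against day 9. For the responses it ran from 0 to 1 (rectum against mid-colon, day 6), 2 to 4 (the same, day 9) and 0 to 2 (anus against rectum, day 6). The counts of mid-colon day 9 and of rectum days 6 and 9 did not change.

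Median-of-ratios scaling moved the median of all genes by 0.25 at rectum day 6, 0.24 at mid-colon day 6 and -0.34 for the day 6 response of anus against rectum. It moved the share of higher among all calls from 33.1% to 59.1% (mid-colon day 6), 23.7% to 53.8% (rectum day 6), 39.9% to 55.2% (rectum day 14), 57.6% to 45.7% (anus day 6), 52.9% to 40.4% (anus day 14), 74.6% to 63.9% (anus day 20), 65.1% to 49.7% (neo-epithelium against anus), 38.6% to 55.7% (neo-epithelium day 20 against day 9), 43.0% to 54.4% (anus against rectum, day 0), 84.7% to 45.9% (rectum against mid-colon, day 0), and, for the response of anus against rectum, 71.4% to 37.1% at day 6 and 21.9% to 35.1% at day 9. With 3 or 4 mice a group and no depth in the table, how far levels under 1 TPM lie from 0 is unknown.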

Other observations

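Ppbp, the neighbour of Cxcl5 on chromosome 5, was far above Cxcl5 wherever squamous tissue was sampled. In the anus its TPM was 1268, 669, 717 and 646 in uninjured mice, 196, 151 and 214 at day 3, 443, 235 and 182 at day 6, and 611, 187 and 1088 at day 9. Every mouse of days 3 and 6 lay below every uninjured mouse. At day 14 it was 3981, 2014 and 3543 and at day 20 it was 2563, 3569 and 4375, above every earlier mouse. In the neo-epithelium it was 2968, 6043 and 4966 at day 9, 5431, 10256 and 7461 at day 14 and 6245, 10203 and 3619 at day 20. Rectal Ppbp at day 20 was 128, 161 and 0.853 TPM, and mouse 19, the low one, also had the lowest rectal Cxcl5 of that day (10.5 TPM). Summed squamous markers varied between rectum samples (13.0 to 1063 TPM), and their part in rectal Ppbp was not tested.

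Cxcl17, a mucosal chemokine, was another ligand that was high late in the anus. Its mean TPM there was 1.01 in uninjured mice, 1.07 at day 6, 16.5 at day 14 and 9.54 at day 20, and in the neo-epithelium it was 28.2 at day 14. The difference of the anus from day 0 was 2.33 ± 0.25 at day 20 (limma, adjusted p = 0.0107).

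Ly6g, widely used as a neutrophil marker, did not follow the other markers. Its mean was 716 TPM in the uninjured mid-colon and 639 in the uninjured rectum, where the other 9 markers together were at 0.201 to 3.36 and 1.08 to 6.38 TPM. In the anus it fell from a mean of 120.4 TPM in uninjured mice to 6.18 at day 6 (-4.13 ± 0.35, limma, adjusted p = 3.88e-04) and 4.51 at day 9 (-4.81 ± 0.54, adjusted p = 0.0013), while Csf3r rose at day 6. Summed colonocyte markers of the anus were also lower, at 37.6 to 75.9 TPM at day 6 against 743 to 2630 in uninjured mice. Their part in the fall of Ly6g was not tested.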
